A study of Mus musculus with 6 samples.

Results

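The histone genes were taken as the genes whose symbol starts with Hist1h, Hist2h, Hist3h or Hist4h (Hist genes) or with H2af, H3f3 or H1f (replacement genes). Of the 15266 genes listed, 54 met this rule, of which 44 were Hist genes and 10 were replacement genes. The Hist genes were 5 H1, 8 H2A, 13 H2B, 9 H3 and 9 H4 genes, and the replacement genes were 2 H1, 6 H2A and 2 H3 genes. In the GENCODE annotation of build NCBIM37 (mm9), 37 of the Hist genes lie in the Hist1 cluster on chromosome 13, 4 in the Hist2 cluster on chromosome 3 and 2 in the Hist3 cluster on chromosome 11, and Hist4h4 lies alone on chromosome 6. The annotation holds 26 further Hist symbols that were not among the listed genes. The medians and shares below therefore cover the listed Hist genes only, none of which had under 10 reads over the 6 libraries.

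Poly(A)-selected RNA was sequenced from day 4 (D4) embryoid bodies (EBs), which are aggregates of differentiating mouse embryonic stem cells (mESCs), grown in serum without LIF, the cytokine that keeps mESCs undifferentiated. Both lines were derived from W9.5 mESCs and both lack a functional EVX1 homeodomain protein, so neither is a wild-type control. Evx1Δfs (clone 14, a single clone) carries small frameshift deletions in both Evx1 alleles within the exon that encodes the homeodomain. Del#3 (Evx1/Evx1asΔ2.6kb, also a single line) lacks a stretch holding the start of Evx1 and the promoters and some exons of its antisense transcript Evx1as. Each line had 3 replicates from side by side differentiations of the lines, each begun on another day, and libraries of the same replicate number were taken to share a day, although no label gives the date of a library.

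Histones package DNA into nucleosomes, with H2A, H2B, H3 and H4 forming the core and H1 binding the linker DNA. Replication-dependent histone genes are transcribed in S phase, and their mRNAs are the known exception among animal mRNAs: they end just after a conserved stem-loop, which is bound by SLBP, instead of in a poly(A) tail. Replacement histone genes are transcribed throughout the cell cycle, usually contain introns, and give ordinary polyadenylated mRNAs. Selection on oligo(dT) beads therefore captures the mRNAs of one class and not the bulk of those of the other, and cells that differentiate or leave the cell cycle are known to make some polyadenylated mRNA from replication-dependent genes.

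Between 9024579 and 15699124 reads per library lay on listed genes. Evx1, the targeted gene, had 256, 347 and 270 RPM (reads per 1000000 reads on listed genes) in the Evx1Δfs libraries and 3.92, 2.88 and 3.16 RPM in the Del#3 libraries, so that the deletion labelled Del#3 was visible in each of its libraries. The 6 epiblast markers checked summed to 1868 to 2808 RPM and the 6 markers of streak mesoderm to 621 to 861 RPM in every library, whereas 3 of the 4 trophoblast markers were not among the listed genes and the remaining one was at 0.0818 to 0.332 RPM. Replicates within a line came from different days, so that the spread between them holds the variation between differentiations as well as that of the libraries.

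The histone stem-loop was searched for in the 200 bases after each stop codon, on the strand of the gene, as the letters GGNNCTTTNNAGNNCC with the first 6 bases complementary to the last 6. It was found in 41 of the 44 Hist genes (93.2%), in 1 of the 9 replacement genes with an annotated stop codon, which was H2afx, and in 2 of 21851 other protein-coding genes (0.00915%). The sequences below, 5′ to 3′ on the strand of the gene in NCBIM37, show each of the 6 versions found, in the genes of that version with the most reads per length. The stem-loop is in capitals and 5 bases on either side are in lower case.
Hist1h2af (H2A), chr13:23626223-23626248, plus strand: ccaaaGGCTCTTTTCAGAGCCaccac
Hist1h1c (H1), chr13:23831376-23831401, plus strand: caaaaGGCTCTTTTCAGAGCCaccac
Hist3h2ba (H2B), chr11:58762846-58762871, plus strand: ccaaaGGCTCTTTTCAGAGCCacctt
Hist1h3c (H3), chr13:23836911-23836936, minus strand: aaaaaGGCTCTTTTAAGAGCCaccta
Hist1h4i (H4), chr13:22132830-22132855, minus strand: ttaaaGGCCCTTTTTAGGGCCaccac
Hist4h4 (H4), chr6:136752514-136752539, minus strand: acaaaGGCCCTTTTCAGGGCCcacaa
Hist1h4b (H4), chr13:23849230-23849255, plus strand: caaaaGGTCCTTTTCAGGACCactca
H2afx (replacement H2A), chr9:44143318-44143343, plus strand: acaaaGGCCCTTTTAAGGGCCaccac

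The stem set the H4 genes apart from the other Hist genes. The version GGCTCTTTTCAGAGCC stood behind 26 Hist genes, namely all 5 H1 genes, all 8 H2A genes, 8 H2B genes and 5 H3 genes. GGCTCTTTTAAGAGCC, which differs from it in the loop, stood behind 3 H2B and 3 H3 genes. All 9 H4 genes had another stem, with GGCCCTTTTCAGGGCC in 5, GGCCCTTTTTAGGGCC in 2 and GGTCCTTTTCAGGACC in 2. H2afx, which encodes the H2A variant phosphorylated at DNA breaks and is known to give both a stem-loop mRNA and a longer polyadenylated one, had the stem otherwise found in H4 genes (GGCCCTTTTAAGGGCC). The 3 Hist genes without a match were Hist1h3g, Hist2h2bb and Hist2h2be, and this says only that these letters are not in that window.

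Gene models differed in how far they ran past the stem-loop. Of the 41 Hist models with a stem-loop, 17 ran over 100 bases beyond it and 24 ended within 100 bases of it, of which 7 ended before the stem-loop was complete. A poly(A) signal (AATAAA or ATTAAA, searched on the strand of the gene in the last 50 bases of the model) was present in 11 of the 17 longer models and in 1 of the 24 shorter ones (Hist1h4h), against 66.7% of 22301 other protein-coding genes and 7 of the 10 replacement genes. The model of Hist1h1c ran 839 bases past its stem-loop, that of Hist3h2ba 166 bases and that of Hist1h4i 150 bases, and each ended with such a signal. The model of H2afx ran 816 bases past its stem-loop and also ended with one. The match is to the annotated models, and where the reads themselves ended was not measured.

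**Figure D1:**
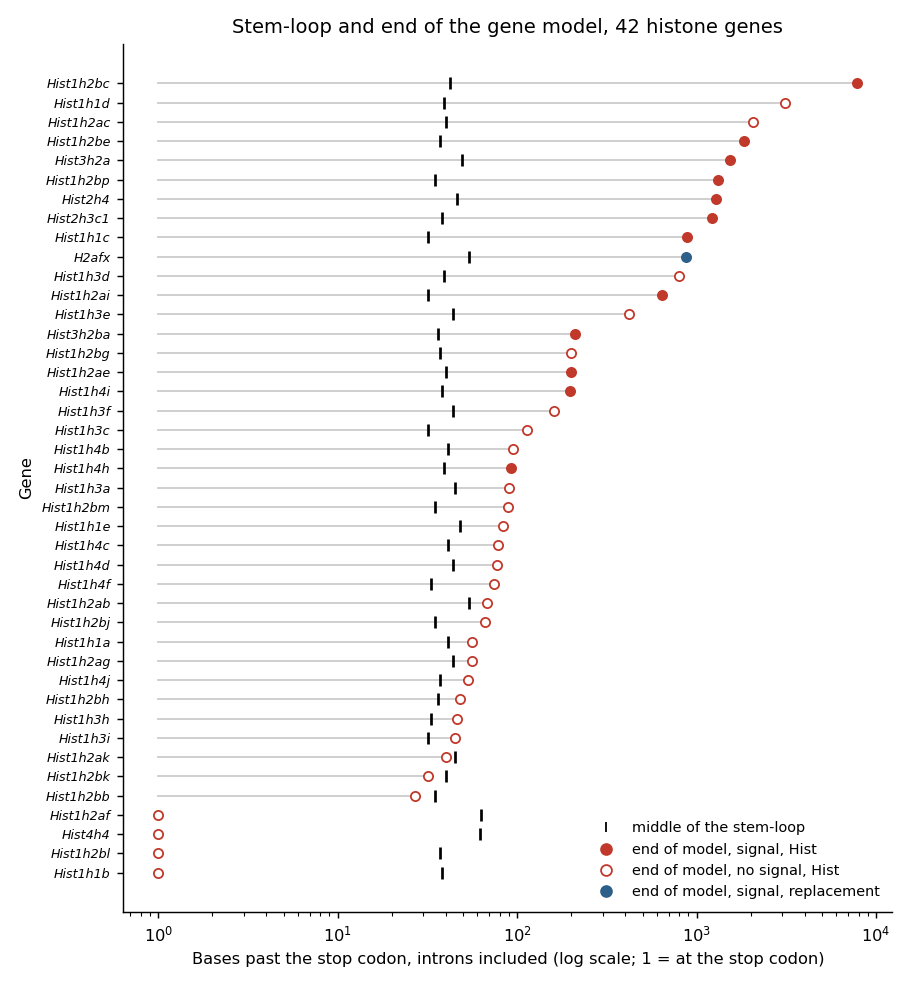
Distance from the stop codon (bases, introns included, log scale) to the middle of the stem-loop (black tick) and to the end of the annotated gene model (circle) for the 42 histone genes with a stem-loop. Filled circles mark models that end with a poly(A) signal, which holds for 11 of the 17 Hist models that run over 100 bases past the stem-loop and for 1 of the other 24.

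In every library, the 44 Hist genes together had far fewer reads than the 10 replacement genes. The Hist genes had 768, 655 and 594 reads in the Evx1Δfs libraries, in the order of their replicate numbers, and 697, 574 and 611 in those of Del#3. This was 48.9, 72.6 and 62.2 RPM in Evx1Δfs (mean 61.2 ± 11.9, SD, n = 3) and 57.0, 59.0 and 62.3 RPM in Del#3 (mean 59.4 ± 2.70, SD, n = 3). The replacement genes had 3117, 2928 and 3184 RPM in Evx1Δfs (mean 3076 ± 133, SD, n = 3) and 2822, 2939 and 2847 RPM in Del#3 (mean 2869 ± 61.4, SD, n = 3). For the Hist sum, the Del#3 libraries lay within the range of the Evx1Δfs libraries, and for the replacement sum the highest Del#3 library lay just above the lowest Evx1Δfs library.

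The share of histone reads on Hist genes was 1.55% in Evx1Δfs replicate 1 (exact 95% binomial interval 1.44 to 1.66), 2.42% in replicate 2 (2.24 to 2.61) and 1.92% in replicate 3 (1.77 to 2.08). In Del#3 it was 1.98% (1.84 to 2.13), 1.97% (1.81 to 2.13) and 2.14% (1.98 to 2.32). Replacement reads outnumbered Hist reads by 40.3 to 63.7 times within a library. These intervals cover counting error only, and Evx1Δfs replicates 1 and 2, at either end of the range, differed by more than that error. The share was taken after selection on oligo(dT) beads, so it measures neither the cells in S phase nor the histone mRNA per cell.

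Of a set of RNAs that normally lack poly(A) tails, 4 were listed. Vaultrc5, Rmrp, Rpph1 and Terc, which are a vault RNA, the RNAs of RNase MRP and RNase P and the telomerase RNA, summed to 4.90, 6.43 and 10.4 RPM in Evx1Δfs and to 8.58, 6.99 and 11.1 RPM in Del#3. Most of this sum was Vaultrc5, with a mean of 6.75 RPM over the 6 libraries, against 0.904 RPM for Rmrp, 0.183 for Rpph1 and 0.224 for Terc. The other 11 RNAs of that set were not among the listed genes. Evx1Δfs replicate 1 was the lowest library for this sum as it was for the Hist sum, but Evx1Δfs replicate 2, the highest for Hist genes, was the next lowest for these RNAs. The part of carried-over RNA without a tail in the Hist reads was not tested.

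The gap between the classes held for each histone type that has both. The Hist H1 genes summed to 13.6 to 27.8 RPM and the replacement H1 genes to 224 to 302 RPM. The Hist H2A genes summed to 9.24 to 16.6 RPM, the replacement H2A genes to 1549 to 1789 RPM. For H3 the ranges were 3.11 to 7.65 RPM and 884 to 1194 RPM. No listed replacement gene encodes H2B or H4, whose Hist genes summed to 10.3 to 15.0 RPM and to 5.10 to 10.8 RPM.

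**Figure D2:**
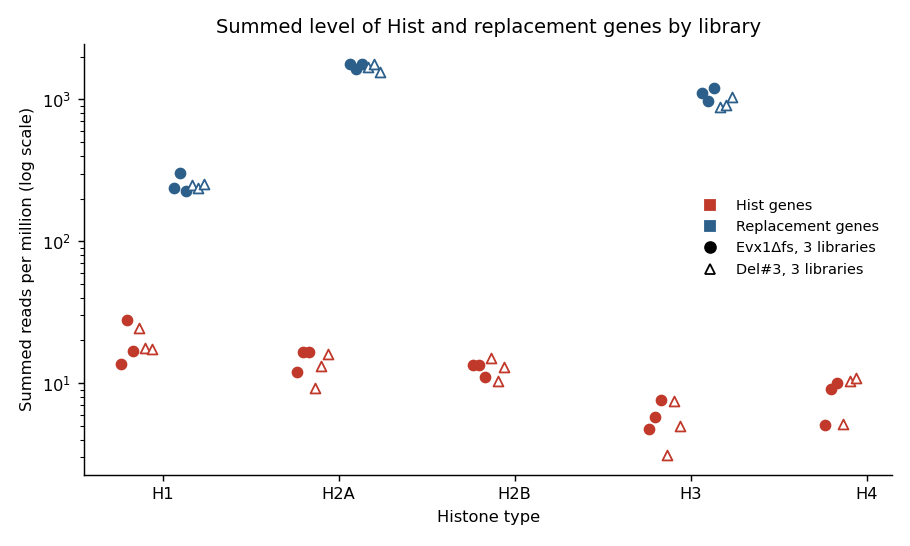
Summed RPM (log scale) of the Hist genes (red) and replacement genes (blue) of each histone type, with 1 point per library (filled circles Evx1Δfs, open triangles Del#3, 3 libraries each). In all 6 libraries every red point lies below every blue point, with Hist sums from 3.11 to 27.8 RPM and replacement sums from 224 to 1789 RPM.

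Per kilobase of annotated exon, the median Hist gene had a mean of 1.04 RPKM (RPM divided by the kilobases of exon), with a range over genes of 0.0602 to 19.9, and the median replacement gene had 116 RPKM, with a range of 12.6 to 532. Among all listed genes ordered by RPM, the median Hist gene stood at percentile 12.03 and the median replacement gene at percentile 91.4. Only Hist1h2af (19.9 RPKM) lay above the lowest replacement gene, H2afy (12.6 RPKM). Their models differ in length, with 399 and 6809 exon bases. In RPM the classes were apart, with at most 12.1 for a Hist gene and at least 50.1 for a replacement gene. All 10 replacement genes had reads in every library, as did 34 of the 44 Hist genes. A total of 25 Hist genes had under 50 reads over the 6 libraries together, which limits what can be said of them one by one.

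**Figure D3:**
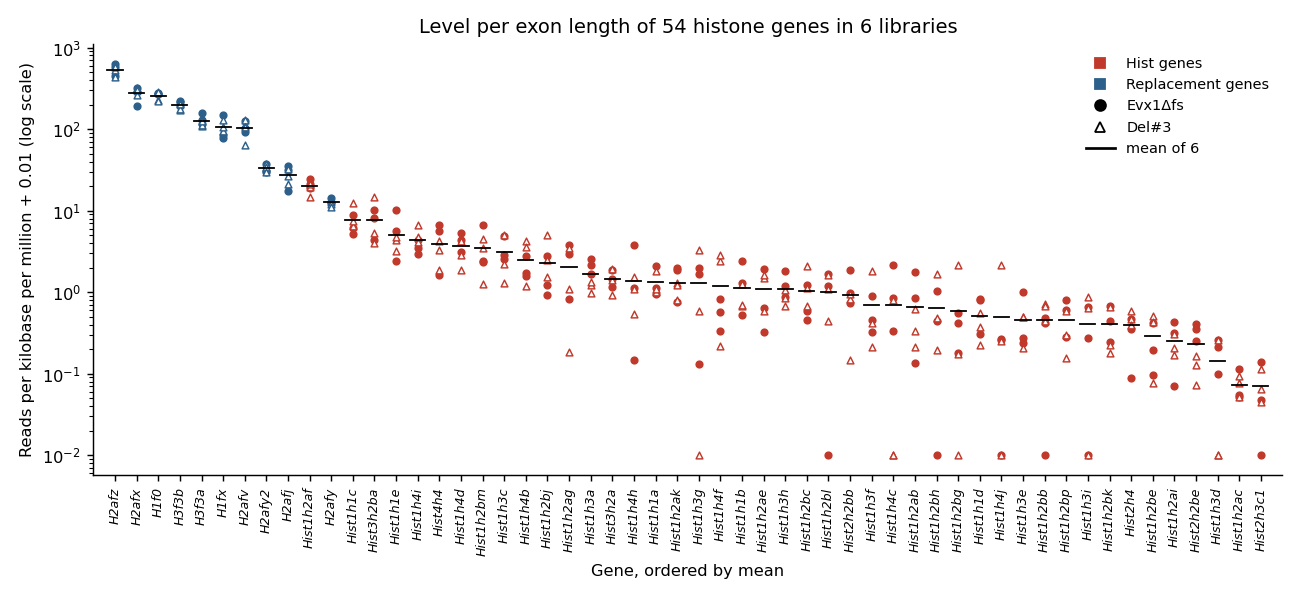
Level per exon length (RPKM + 0.01, log scale) in each of the 6 libraries for the 54 histone genes, ordered by their mean (black bar). The replacement genes (blue) hold the top 9 places, and points at the bottom of the scale are libraries with 0 reads.

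H2afz led the replacement genes. It encodes H2A.Z, the variant found at promoters and required in early embryos, and had 10545, 8443 and 12738 normalized counts in Evx1Δfs and 9164, 11481 and 8012 in Del#3, or 31.9% of all replacement reads. The values of the lines overlapped, with the lowest and next-lowest library from different lines. H2afv, which encodes a nearly identical H2A.Z protein, had 1577, 2187 and 1892 in Evx1Δfs and 1015, 2416 and 1797 in Del#3, so that Del#3 held both the lowest and the highest library. Per length, H2afz had 532 RPKM and H2afv 103 RPKM, and their ranges over the 6 libraries (431 to 636 and 63.5 to 131) were apart.

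H2afx, the replacement gene with a stem-loop, stood next after H2afz per length, with 280 RPKM and 191 to 321 over the libraries. It had 4032, 4526 and 2919 normalized counts in Evx1Δfs and 4245, 3978 and 4325 in Del#3, where the Evx1Δfs libraries took in the whole Del#3 range. Its level was thus among the replacement genes and not among the Hist genes, with which it shares the stem-loop. The pair H3f3a and H3f3b, which encode the same replacement H3 protein, stood at 125 RPKM (108 to 157) and 196 RPKM (170 to 220). H3f3b had 6797, 6026 and 7257 normalized counts in Evx1Δfs and 4928, 5930 and 6278 in Del#3, and H3f3a had 4708, 4325 and 6215 against 3691, 4381 and 4632. In each library H3f3b lay above H3f3a per length.

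The linker variants were H1f0, known from cells that have stopped dividing, and H1fx. H1f0 had 1525, 1520 and 1601 normalized counts in Evx1Δfs (mean 1549 ± 45.3, SD, n = 3) and 1467, 1390 and 1227 in Del#3 (mean 1361 ± 123, SD, n = 3), and was the only replacement gene whose lines did not overlap. The lines did not overlap in 3.51% of all genes tested. H1fx had 925, 1678 and 930 in Evx1Δfs and 970, 1288 and 1444 in Del#3, with Evx1Δfs at both ends. Its level per length was 107 RPKM. The level of H1f0 per length (257 RPKM) is uncertain, because its model in this annotation has 534 exonic bases, no stop codon and the class of a pseudogene.

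The macroH2A genes, whose proteins carry a large extra domain and mark the inactive X chromosome, were lower per length. H2afy2 had 839, 703 and 729 normalized counts in Evx1Δfs and 808, 842 and 684 in Del#3 (33.0 RPKM), and H2afy, given here for its place in the order, had 12.6 RPKM with 11.0 to 14.4 over the libraries. H2afj, an H2A variant that follows at 27.4 RPKM (17.5 to 34.8), overlapped in range with H2afy2 (29.4 to 37.7). In RPM the order was H2afy (85.5), H2afy2 (72.5) and H2afj (50.1). From the top, the ranges of H2afz and H2afx were apart, while those of H2afx, H1f0 and H3f3b overlapped from each to the next, as did those of H3f3a, H1fx and H2afv.

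A few Hist genes held most of the Hist reads. Of the 3899 Hist reads in the 6 libraries, Hist1h1c had 801 (20.5%), the leading pair (Hist1h1c and Hist1h2af) 33.8% and the leading 5 genes 53.1%. Hist1h1c encodes a linker histone of somatic cells and had 99.0, 146 and 89.8 normalized counts in Evx1Δfs (mean 112 ± 30.4, SD, n = 3) and 190, 113 and 123 in Del#3 (mean 142 ± 41.8, SD, n = 3). The lines overlapped, with Del#3 replicate 1 standing above the other 5 libraries. Of the other linker genes, Hist1h1e had 18.5, 79.7 and 47.3 in Evx1Δfs and 23.1, 37.2 and 37.4 in Del#3, with replicate 1 the lowest of each line. Hist1h1d had 11.9, 32.8 and 34.3 against 13.5, 23.2 and 8.54. Per length, these 3 stood at 7.75, 5.07 and 0.504 RPKM.

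Hist1h2af had the highest level per length of the Hist genes, with 19.9 RPKM and 14.5 to 24.4 over the libraries. Its normalized counts were 78.5, 89.1 and 110 in Evx1Δfs and 56.6, 87.1 and 88.6 in Del#3, a narrower relative spread than that of any other tested Hist gene (coefficient of variation 20.4%). Its model covers 399 bases, ends before the stem-loop, and shares 79.7% of its windows of 50 bases with at least 1 other annotated histone gene, all of that share with Hist1h2ad. HTSeq at its standard settings leaves out reads reported as aligned to several places, and how the aligners placed and reported such reads is not given in the sources used here, so that the levels of such copies are uncertain. Hist1h2ag, another H2A gene of the cluster (81.5% of windows shared), had 3.96, 18.8 and 15.4 normalized counts in Evx1Δfs and 0.797, 5.81 and 17.1 in Del#3, again with replicate 1 the lowest of each line.

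Sequence sharing was common in the Hist class and rare in the replacement class. Of the Hist genes, 39 shared at least 1 such window with another annotated histone gene and 11 shared over 50% of them, whereas 4 of the 10 replacement genes shared any and none over 7.76%. The 11 Hist genes with the most sharing had a median of 1.02 RPKM and the other 33 had 1.09 RPKM. The models of 4 Hist genes also overlap exons of another gene on the same strand, among them Hist3h2a with Trim17.

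Among H2B genes, Hist3h2ba led with 7.71 RPKM. It had 64.7, 52.7 and 30.7 normalized counts in Evx1Δfs and 87.7, 27.9 and 34.2 in Del#3, so that the first replicate was the highest of each line. Hist1h2bm (3.44 RPKM) had 13.2, 12.9 and 39.0 against 6.38, 26.7 and 19.2. Hist1h2bj had 13.2, 5.86 and 4.73 against 22.3, 12.8 and 7.48 with the lines overlapping. Hist2h2bb, which has no match to the stem-loop, had 11.2, 29.3 and 16.5 against 11.95, 2.32 and 15.0, where Del#3 replicate 2 rests on 2 reads.

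The H3 and H4 genes had few reads too. Hist1h3c, the leading H3 gene (3.12 RPKM), had 16.5, 18.8 and 34.3 normalized counts in Evx1Δfs and 13.5, 36.0 and 8.54 in Del#3. Hist1h4i, the leading H4 gene (4.39 RPKM), had 16.5, 24.6 and 21.3 against 21.5, 29.0 and 37.4. The lines overlapped in either gene. Hist4h4 (3.90 RPKM) had 5.28, 18.8 and 23.6 against 5.58, 15.1 and 10.7, with replicate 1 the lowest of each line. Hist1h4d (3.62 RPKM) had 17.8, 12.9 and 23.6 against 7.17, 18.6 and 11.7, and Hist1h4b (2.49 RPKM) had 8.58, 8.20 and 15.4 against 5.58, 23.2 and 18.2. In the order of the 10 leading Hist genes by RPKM, the range of Hist1h2af over the libraries was apart from that of Hist1h1c, and from there each range overlapped the next.

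Genes whose models run past the stem-loop to a later end had a lower median per length than those whose models stop at it. The 17 genes with the longer models had a median of 0.504 RPKM and 0.678 RPM, and the 24 with the shorter models had 1.32 RPKM and 0.752 RPM. RPKM divides by the length of the model, by which these groups were formed, so that the RPM is given beside it. No test was made of these medians, since genes are not replicates.

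The spread between libraries was wider in the Hist genes, which had fewer reads, than in the replacement genes. Over the 6 libraries, the coefficient of variation of the 44 Hist genes had a median of 59.0% and ranged from 20.4% to 168%, against a median of 37.8% from counting error alone. For the 10 replacement genes the median was 16.1%, with a range of 9.05% to 27.0%, against 2.45% from counting. Over all genes tested, the median was 24.8%, against 6.05% from counting. The spread was above the counting error in 39 of the 44 Hist genes and in all 10 replacement genes.

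**Figure D4:**
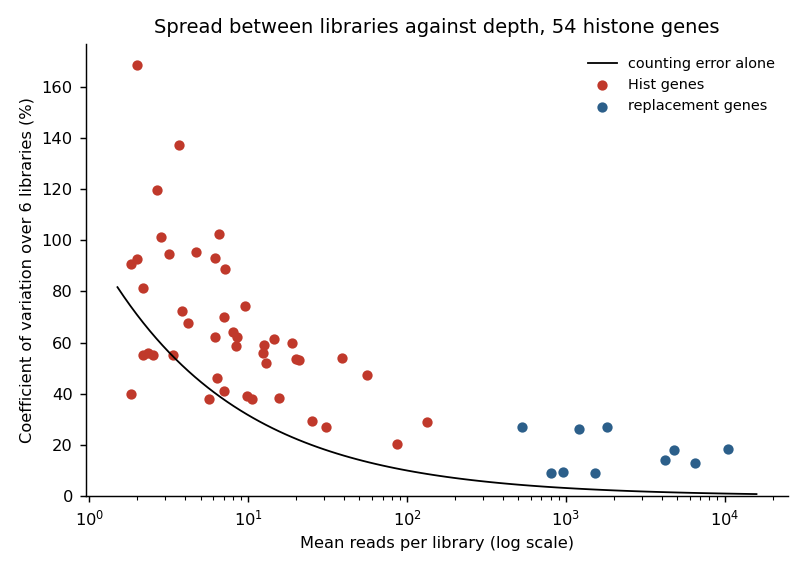
Coefficient of variation of the normalized counts over the 6 libraries (percent) against the mean reads per library (log scale) for the 44 Hist genes (red) and the 10 replacement genes (blue), with the curve for counting error alone. The replacement genes lie between 9.05% and 27.0%, all above the curve, and the Hist genes lie between 20.4% and 168%, with 39 of the 44 above the curve.

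The first comparison asks whether the lines, which differ in whether the rest of the Evx1/Evx1as locus is left in place, differ in histone mRNA. Of the 12891 genes with enough reads to test, 2 differed by limma at an adjusted p-value (Benjamini-Hochberg) under 0.05, which is 0.0155%, and 133 had an unadjusted p-value under 0.05, which is 1.03%. The genes tested took in 16 of the 44 Hist genes and all 10 replacement genes. None of these 26 was called, and none had an unadjusted p-value under 0.05. edgeR's quasi-likelihood test and DESeq2 also called 0 of them, and so did limma with the replicate number as a block, where 0.0233% of all genes were called. The adjusted p-value of every tested histone gene by limma was 1.00.

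The tested Hist genes had a median log2 fold change of -0.29 in Del#3 against Evx1Δfs, with 5 above 0 and 11 below. The tested replacement genes had a median of -0.16, with 3 above 0 and 7 below, and all genes tested had a median of 0.0022. Within same-numbered pairs, the Hist medians were -0.053, -0.16 and -0.22 and the replacement medians -0.13, -0.0022 and -0.15. All 3 pairs went one way in 3 of the 16 Hist genes (Hist1h2bj and Hist1h4i higher in Del#3, Hist1h2af lower) and in 2 of the 10 replacement genes (H1f0 and H3f3b, both lower), beside 23.1% of all genes tested. These are fold changes of log2(normalized count + 1), which understate changes of low genes. Both medians depended on single libraries. With each library left out, the Hist median ran from -0.46 to -0.068 and the replacement median from -0.22 to -0.057.

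Hist2h2bb had the largest fitted difference of the 16 tested Hist genes, with a log2 fold change of -1.08 (SE 0.66, 95% interval -2.55 to 0.39). It was -0.95 (SE 0.86) for Hist1h2ag, 0.76 (SE 0.58) for Hist1h2bj and -0.73 (SE 0.55) for Hist1h1d. Single libraries set the size and order of these values: Hist2h2bb was -0.38 without Del#3 replicate 2, Hist1h2ag -0.077 and Hist1h2bj 0.39 without Del#3 replicate 1, and Hist1h1d -0.41 without Del#3 replicate 3, and with a pseudocount of 0.1 Hist1h2ag (-1.23) passed Hist2h2bb (-1.22). Leaving out other libraries widened them. Hist1h2ag was -1.74 without Del#3 replicate 3, and Hist1h2bj was 1.16 and Hist1h1d -1.20 without Evx1Δfs replicate 1. Of the leading genes, Hist1h1c had 0.33 (95% interval -0.40 to 1.07) and Hist1h2af -0.27 (95% interval -0.996 to 0.46). With single libraries left out, they ran from 0.11 to 0.54 and from -0.38 to -0.060. None of these intervals excludes 0, and 1 of the 16 (Hist1h2af) lies within a 2-fold change in either direction, so that for the others a 2-fold difference was not excluded at this depth.

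The replacement genes were measured more closely. H3f3a had the largest fitted difference among them, with a log2 fold change of -0.25 (SE 0.23, 95% interval -0.77 to 0.26), followed by H3f3b with -0.23 (SE 0.22, 95% interval -0.72 to 0.26). Without Evx1Δfs replicate 3, H3f3a was -0.098 and H3f3b -0.17, which turns their order, and H2afv (-0.18) passed both in size. H2afv also passed them without Evx1Δfs replicate 1 (-0.31) and without Del#3 replicate 2 (-0.47). H1fx did so without Evx1Δfs replicate 2 (0.39) and without Del#3 replicate 1 (0.27). H2afz had -0.14 (95% interval -0.70 to 0.42), H2afx 0.15 (-0.37 to 0.67), H2afv -0.19 (-0.89 to 0.51) and H1fx 0.11 (-0.54 to 0.75). H1f0, whose lines did not overlap, had -0.19 (-0.65 to 0.27), and -0.12 without Del#3 replicate 3. The intervals of all 10 lie within a 2-fold change. The half-width of the interval had a median of 0.52 in the replacement genes and 1.24 in the tested Hist genes.

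**Figure D5:**
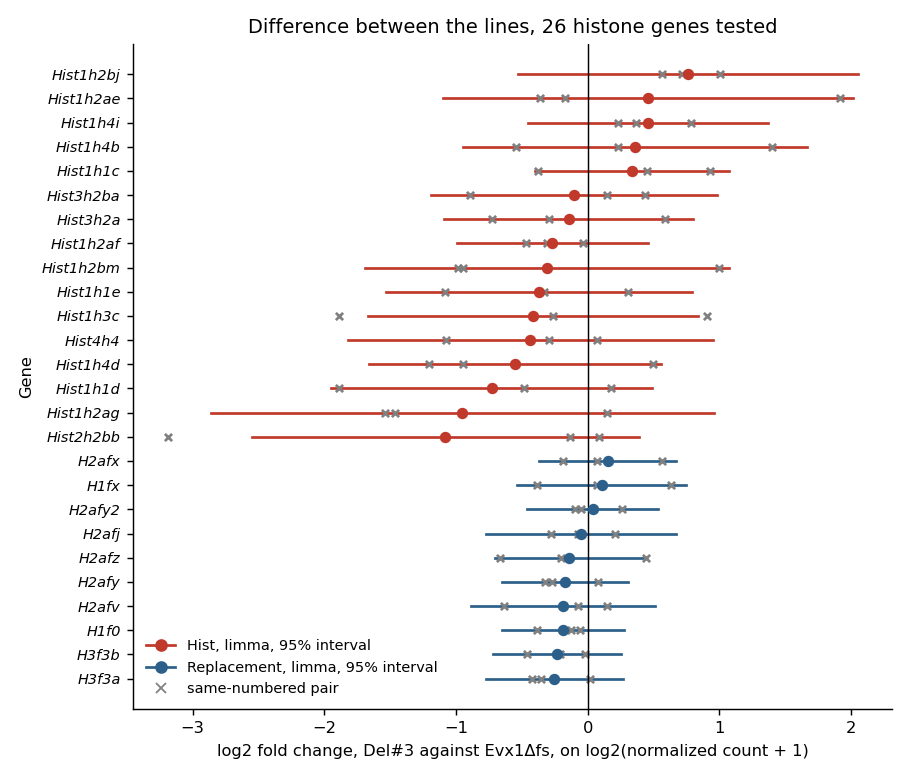
Log2 fold change of Del#3 against Evx1Δfs on log2(normalized count + 1) by limma, with 95% intervals, for the 16 Hist genes (red) and 10 replacement genes (blue) that were tested, and the difference within each same-numbered pair of libraries (grey crosses). Every interval takes in 0, and the intervals of the Hist genes are wider than those of the replacement genes, with median half-widths of 1.24 and 0.52.

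The libraries of the lines did not overlap in 1 of the 10 replacement genes (H1f0) and in 0 of the 16 tested Hist genes, whereas this held for 3.51% of all genes tested. Among the 28 Hist genes with too few reads for the test, a pair chosen after their values were seen did not overlap, and without the filter on low counts the share over all listed genes was 4.33%. Hist2h2be, which has no match to the stem-loop and a model of 2618 bases ending in a poly(A) signal, had 10, 8 and 10 reads in Evx1Δfs and 2, 3 and 4 in Del#3. Hist1h3a had 11.9, 9.38 and 15.4 normalized counts against 6.38, 5.81 and 7.48, while its reads (18, 8 and 13 against 8, 5 and 7) met at 8. In a limma fit without the filter, the log2 fold change of Hist2h2be was -1.35 (SE 0.57, unadjusted p = 0.0360, adjusted p = 1.00), and it was the only histone gene with an unadjusted p-value under 0.05, which 1.37% of all genes had in that fit.

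The second comparison was between the replicate numbers, taken to mark the days of differentiation, with the line in the model. Replicate 1 was also the deepest library of each line (15699124 reads on listed genes in Evx1Δfs, 12231851 in Del#3), so replicate number is confounded with depth. Same-numbered libraries did not deviate together in replicate 3, where the correlation of their deviations across genes was -0.053. By limma's F test, 546 genes (4.24%) differed between replicate numbers at an adjusted p-value under 0.05, and 3567 (27.7%) at an unadjusted one. The count of 546 depended on single libraries, with 194 without Evx1Δfs replicate 1 and 3247 without Del#3 replicate 3, and was 347 with TMM factors and 317 with total reads. None of the tested histone genes was called. An unadjusted p-value under 0.05 was found for 3 of the 16 Hist genes (Hist1h1e, Hist1h2ag and Hist3h2ba) and 2 of the 10 replacement genes (H2afj and H2afv), read against the 27.7% of all genes.

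Of the tested genes, 5 of 16 Hist genes and 3 of 10 replacement genes were lowest in replicate 1 of both lines, beside 26.4% of all genes tested. H2afj, named here because of this test, had 332, 673 and 651 normalized counts in Evx1Δfs and 383, 555 and 618 in Del#3 (limma, adjusted p = 0.0849). H2afv was lowest in replicate 1 and highest in replicate 2 of both lines (adjusted p = 0.114 by limma). Hist1h2ag and Hist1h1e, with adjusted p-values of 0.109 and 0.154 by limma, were also lowest in replicate 1, whereas Hist3h2ba was highest in replicate 1 (adjusted p = 0.174 by limma). The adjusted p-value of H2afj passed the threshold in 4 of the fits that leave out 1 library (0.0281 to 0.0391), that of H2afv in 3 of them (0.0300 to 0.0335), that of Hist1h2ag without Evx1Δfs replicate 3 (0.0221) and that of Hist1h1e without Del#3 replicate 3 (0.0420), by limma. In such a fit 1 replicate number is left with a single library, which is assumed to vary like those of the other numbers. In these 4 fits 11.6% (without Del#3 replicate 2), 17.1% (without Evx1Δfs replicate 2), 19.0% (without Evx1Δfs replicate 3) and 25.2% (without Del#3 replicate 3) of all genes tested were called, beside 0 to 1 of the 16 Hist genes and 1 to 2 of the 10 replacement genes. In the other fits, without Evx1Δfs replicate 1 and without Del#3 replicate 1, 194 and 212 of the 12891 genes were called, and 0 histone genes.

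Genes that make and handle histone mRNA were taken as lists chosen with results of these data known. Of 18 genes for the processing of replication-dependent histone mRNA, all 18 were tested and 0 differed between the lines, with 1 at an unadjusted p-value under 0.05, beside the 1.03% of all genes, and a median log2 fold change of 0.075. That gene was Npat, the coactivator of histone gene transcription in S phase, with 214, 129 and 279 normalized counts in Evx1Δfs and 552, 344 and 265 in Del#3 (log2 fold change 0.90, SE 0.36, adjusted p = 1.00 by limma). Slbp, whose protein binds the stem-loop, had 1533, 1004 and 1508 against 1345, 884 and 1487, with replicate 2 the lowest of each line. Casp8ap2, which encodes a component of the histone locus body, had 144, 45.7 and 343 against 567, 394 and 105, a spread within lines as large as the difference between them (log2 fold change 1.12, SE 0.73, by limma).

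The remaining lists gave no call between the lines either. Of 14 genes for cleavage and polyadenylation, 0 were called and 0 had an unadjusted p-value under 0.05. Of 23 histone chaperone genes tested, 0 were called and 2 had an unadjusted p-value under 0.05, beside the 1.03% of all genes. These were Atrx, which helps to deposit the replacement H3 protein at repeats, with 249, 76.2 and 411 normalized counts in Evx1Δfs and 1542, 763 and 198 in Del#3 (log2 fold change 1.63, SE 0.73, adjusted p = 1.00 by limma), and Ubn2, a partner of Hira, with 198, 115 and 116 against 423, 176 and 231 (log2 fold change 0.90, SE 0.38, adjusted p = 1.00 by limma). Both were named after their values were seen, and the lines overlapped in both. Hira, which deposits the replacement H3 protein, had 952, 761 and 677 normalized counts against 861, 765 and 805, and Asf1b, a chaperone of newly made H3 and H4, had 624, 800 and 835 against 658, 1011 and 754. Both genes overlapped between the lines, with log2 fold changes of 0.038 and 0.089 by limma.

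Of 20 S-phase genes tested, 0 were called between the lines, 0 had an unadjusted p-value under 0.05, and the median log2 fold change was -0.033. Pcna, the sliding clamp of DNA replication, had 5297, 2871 and 4683 normalized counts in Evx1Δfs and 3317, 3547 and 3463 in Del#3, with all Del#3 libraries inside the Evx1Δfs range. Between replicate numbers, limma's F test called 2 of the histone mRNA processing genes, 2 of the polyadenylation genes, 1 of the chaperone genes and 1 of the S-phase genes, beside the 4.24% of all genes given above.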

How the data were processed

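mRNA was selected from total RNA of D4 EBs on oligo(dT) beads (Dynabeads mRNA DIRECT) and sequenced on the Ion Proton. According to the methods and the submitters' processing notes, the authors aligned the reads (build mm9) using TopHat2 followed by TMAP, ran HTSeq with default options for the counts per gene and normalized with DESeq2. The deposited signal values are these normalized counts. A single step per library divided 100% of its values into whole reads (tolerance 0.1), which were used as recovered reads. Columns left unused numbered 0. No row was a total or lacked a gene.

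Lines were compared with limma 3.58.1 (R 4.3.3, intensity trend) on log2(normalized count + 1), with no covariate. Genes passed filterByExpr of edgeR 4.0.16 with a minimum count of 10, and an adjusted p-value (Benjamini-Hochberg) under 0.05 was a call. RPM used the reads on listed genes, and RPKM the merged exons of GENCODE models on NCBIM37. The methods do not name the gene models used for the counts, so these lengths may differ from theirs. On the recovered reads, edgeR's quasi-likelihood test called 2 genes and DESeq2 1.42.0 called 3. Other alternatives were TMM factors, total reads, pseudocounts of 0.1 and 5, no filter, the replicate block and leaving out each library. Each test was run on simulated data with the same dispersion for every gene, which does not show how it performs on these data. The series' design text has replicates set up side by side on different days, so same-numbered libraries were taken to share a day, though no label dates a library. Their deviations from the line means correlated across genes at 0.74, 0.32 and -0.053 for replicates 1 to 3.

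Members and lists were chosen with earlier results of these data known. Genes named were those past a threshold, the 10 Hist and 8 replacement genes with the highest RPKM, the 4 and 2 with the largest fold changes, and 6 genes of the lists. Others were named after their values were seen. Wild-type EBs were not analysed here. The number of libraries and, for Hist genes, the reads limit precision.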

Additional observations from a re-analysis of the deposited data

How the results depend on the processing

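Of 308 alternative values for the log2 fold changes of 22 named histone genes, 290 kept their direction, none passed the threshold, and 18 reversed, in 10 genes. By edgeR's quasi-likelihood test and DESeq2, Hist3h2ba was 0.045 and 0.022. With single libraries left out, the values of these genes ran from -0.037 to 0.39 for H1fx, -0.47 to 0.16 for H2afv, -0.031 to 0.28 for H2afx, -0.022 to 0.13 for H2afy2, -0.29 to 0.0017 for H2afz, -0.93 to 0.098 for Hist1h1e, -0.70 to 0.25 for Hist1h2bm, -0.97 to 0.012 for Hist1h3c, -0.0093 to 0.93 for Hist1h4b and -0.60 to 0.21 for Hist3h2ba. The counts of Hist and replacement genes called between the lines were 0 under every alternative run, the replicate block included, which called 3 genes in all against 2 and changed no call of a histone gene. Between replicate numbers, TMM factors gave 347 genes, total reads 317, and leaving out each library 194 to 3247, with 0 to 1 Hist and 0 to 2 replacement genes, and the cause was not tested. The Hist median was -0.12 with no filter, which adds 28 Hist genes with few reads, and -0.46 to -0.068 when each library was left out. The replacement median was then -0.22 to -0.057. Without Hist1h1c, the Hist genes held 0.00457% of reads in Del#3 in place of 0.00594%. Without H2afz, the replacement genes held 0.209% in Evx1Δfs and 0.196% in Del#3 in place of 0.308% and 0.287%, and without both genes the Hist share of histone reads was 2.27% in place of 2.03% in Del#3 and 2.37% in place of 1.96% in Evx1Δfs, which turns the order of the lines. Counting error alone gives a median coefficient of variation of 22.7% in the tested Hist genes and 2.45% in the replacement genes, against 53.3% and 16.1% measured. The source of the spread beyond counting error was not tested.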
